A study of Mus musculus with 3 samples.

Results

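The genes described here encode receptors for ATP, ADP, UDP, UDP-glucose and adenosine and an enzyme that degrades extracellular nucleotides. They were a fixed list of 10 genes, namely P2rx4, P2rx7, P2ry2, P2ry6, P2ry13, P2ry14, Entpd1, Adora2a, Adora2b and Adora3, of the 22238 genes listed in all 3 RNA-Seq libraries. The list was chosen with earlier results of these data known. All 10 were found in each library, and each was above 3 TPM (a transcript level corrected for transcript length and library size) in at least 1 of them.

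Cells that are stressed or dying release ATP, and extracellular nucleotides act on P2X receptors, which are ATP-gated cation channels, and on P2Y receptors, which are coupled to G proteins. The ectonucleotidase CD39, encoded by Entpd1, converts ATP and ADP to AMP, and CD73, encoded by Nt5e, converts AMP to adenosine. Adenosine then acts on G protein-coupled receptors, of which those encoded by Adora2a and Adora2b raise cAMP and those encoded by Adora1 and Adora3 lower it. In myeloid cells, ATP acting on P2X7 is known for activating the inflammasome, and the Adora2a receptor is known for restraining inflammatory responses.

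Experimental autoimmune encephalomyelitis (EAE), a mouse model of multiple sclerosis, was induced in wild-type female C57BL/6J mice aged 10 to 12 weeks by immunization under the skin with a myelin oligodendrocyte glycoprotein (MOG) peptide in complete Freund's adjuvant. All animals also received pertussis toxin, 250 ng into the peritoneum 2 h and again 24 h after the peptide, so no library came from an unimmunized mouse. Cells were sorted on days 14 to 15. The bone marrow monocytes (BM monocytes) were sorted as cells with CD45, CD11b and high Ly6C but neither Ly6G nor CD11c and were pooled from 13 mice of 2 experiments. The spinal cord monocytes (SC monocytes) carried CD45, CD11b, CD64 and high Ly6C but no Ly6G. The monocyte-derived antigen-presenting cells (APCs) had the same gate with low or absent Ly6C, and both were pooled from 18 mice of 3 experiments each. With 1 pooled library per population, no difference between populations has a replicate check, the populations could not be tested against each other, and p-values are left out. A field of the labels places the APCs in the bone marrow, whereas their title and tissue label place them in the spinal cord, and they are treated as spinal cord cells here. Unlike the spinal cord gates, the bone marrow gate did not use CD64 and left out CD11c-positive cells, and tissue and gate cannot be told apart in comparisons with the bone marrow library.

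Depth was similar, with estimated reads of 33280643 for the BM monocytes, 27283795 for the SC monocytes and 28209589 for the APCs. The APC values covered 22242 genes and those of each monocyte library 54432, so the APC values rest on a different set of transcripts. TPM was therefore rescaled to the same sum over the 22238 common genes. The list of 8 monocyte genes was above 3 TPM throughout in all 3 libraries, with summed levels of 10780.4, 9442 and 3790.5 TPM in BM monocytes, SC monocytes and APCs, and the list of 8 APC genes summed to 700.2, 10913 and 25824 TPM. Markers of other cell types also differed. The 12 microglia genes, which include P2ry12, summed to 229, 571 and 1179 TPM, where Sall1 had 0 reads in BM monocytes and 13.5 TPM in APCs. The 7 T and NK cell genes summed to 0.417, 48.3 and 73.1 TPM, where Trac had 0 reads in BM monocytes and 29.1 TPM in APCs. The 5 endothelial genes summed to 10.1, 32.1 and 19.5 TPM, with Cldn5 at 0 reads in the bone marrow. The 6 progenitor genes summed to 633, 76.6 and 65.5 TPM, but Cd34 stood at 3.03, 12.5 and 35.7 TPM and Kit at 0.208, 1.7 and 6.92 TPM. The other progenitor genes were lower in both spinal cord libraries. The 6 neutrophil genes summed to 812, 163 and 254 TPM, of which Mmp8 alone was 707, 119 and 137 TPM. Retnlg (1.77, 16.7 and 57.9 TPM) and Cxcr2 (2.56, 9.1 and 6.75 TPM) were higher in both spinal cord libraries, and Ltf in APCs alone. Summed levels over the 6 genes of CNS-associated macrophages were 15.7, 36.8 and 51.0 TPM. The 6 cDC genes summed to 40.8, 21.3 and 28.3 TPM, but Flt3 alone was 37.8, 3.65 and 6.65 TPM. The other cDC genes were higher in both spinal cord libraries, with Clec9a at 0.108, 4.38 and 7.4 TPM. The 5 B cell genes summed to 8.70, 3.53 and 3.78 TPM, mostly from Cd79b at 8.54, 2.55 and 3.26 TPM. The 7 neuron and glia genes summed to 75.2, 49.1 and 44.6 TPM, of which Mbp alone was 72.7, 35.7 and 33.8 TPM. The other neuron and glia genes were higher in both spinal cord libraries. The part of these markers in the results below was not tested.

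Sequences upstream of the start sites are shown for the genes with a window whose levels differed most between the monocyte libraries and for Adora2b, which was highest in SC monocytes, so that the regulatory DNA can be read beside the values. RefSeq start sites on GRCm38.p6 were available for 8 of the 10 genes. The windows printed hold the 250 bases before the most upstream start, without bases inside annotated exons, in the 5′ to 3′ direction of the gene. They lie at chr3:59153619-59153742 on the minus strand for P2ry14, at chr3:59210883-59211132 on the minus strand for P2ry13, at chr19:40612116-40612365 on the plus strand for Entpd1 and at chr11:62248734-62248983 on the plus strand for Adora2b. The capitals mark a match to the AP-1 motif TGANTCA.
P2ry14: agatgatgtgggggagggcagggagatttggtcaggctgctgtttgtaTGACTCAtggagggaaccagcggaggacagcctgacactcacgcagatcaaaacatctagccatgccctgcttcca
P2ry13: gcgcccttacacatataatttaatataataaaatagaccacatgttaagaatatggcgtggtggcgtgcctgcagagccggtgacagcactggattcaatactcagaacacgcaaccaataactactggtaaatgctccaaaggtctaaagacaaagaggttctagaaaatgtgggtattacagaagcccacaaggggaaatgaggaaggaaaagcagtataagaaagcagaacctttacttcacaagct
Entpd1: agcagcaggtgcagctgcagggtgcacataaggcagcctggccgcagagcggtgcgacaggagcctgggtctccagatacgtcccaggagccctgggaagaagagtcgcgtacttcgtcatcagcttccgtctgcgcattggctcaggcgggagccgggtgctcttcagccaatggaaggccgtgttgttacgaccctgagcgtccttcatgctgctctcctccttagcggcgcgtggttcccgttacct
Adora2b: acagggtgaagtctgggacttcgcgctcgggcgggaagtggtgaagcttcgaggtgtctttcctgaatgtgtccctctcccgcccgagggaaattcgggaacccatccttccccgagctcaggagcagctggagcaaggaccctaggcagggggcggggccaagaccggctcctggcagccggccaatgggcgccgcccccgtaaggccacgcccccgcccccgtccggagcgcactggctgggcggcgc

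Each 250-base window was searched on both strands for 8 motifs, spelled TGANTCA for AP-1, TGACGTCA for CRE, TTGCNNAA for C/EBP, GAGGAAGT for PU.1, TTCNNNGAA for STAT and ACGTG for HIF. The NF-kB motif was GGG and TTTCC with 2 free bases between them, and the IRF motif was GAAA and again GAAA with 2 free bases between them. No motif of the list lies wholly inside another, and overlapping matches were counted separately. The AP-1 letters were found in the windows of P2ry14, P2rx7 and Adora3, and in 6.75% of the 32851 windows of all genes. The C/EBP letters were found in windows of P2ry2 and P2ry14 (9.56% of all windows), the HIF letters at the second start of P2ry2 (16.6%) and the PU.1 letters at Adora3 (2.44%). None of the letters of NF-kB (1.41%), CRE (1.55%), IRF (2.98%) or STAT (7.02%) was found in a window of the 8 genes, which says nothing of the factors themselves. The windows of P2ry13, Entpd1, Adora2b and P2rx4 held no match at all.

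To ask how these genes differed between monocytes that had entered the inflamed spinal cord and those in the bone marrow, reads were scaled by median-of-ratios size factors and given a log2 ratio with a 98% interval. A gene counted as called if this whole interval exceeded a 2-fold change and the gene was above 3 TPM in either library. The intervals hold the counting error of the reads alone, without any spread between libraries. Reads copied by PCR do not stand for separate molecules, so even this error may be understated. Of the 10 genes, 8 were called higher in SC monocytes, 0 lower and 2 were not called, against 13.6% called higher and 11.0% called lower of all 10072 genes above 3 TPM in either library. With a spread between libraries assumed at a coefficient of variation (CV) of 0.2 or 0.4, the 8 fell to 5 or 4. The median log2 fold change was 2.06 for the 10 genes and -0.17 for all of these genes. Because the 10 were chosen with earlier results of these data known, their distance from all genes is a description and does not test the pathway. Summed over the 10 genes, the level was 176 TPM in BM monocytes, 664 TPM in SC monocytes and 665 TPM in APCs. In bulk libraries such as these, fewer cells of a type and less RNA per cell cannot be told apart. The order of the genes changed as well. P2rx4 was the most abundant of the 10 in BM monocytes, with 26.7% of their summed level, and Entpd1 in the spinal cord, with 36.6% in monocytes and 30.0% in APCs.

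**Figure D1:**
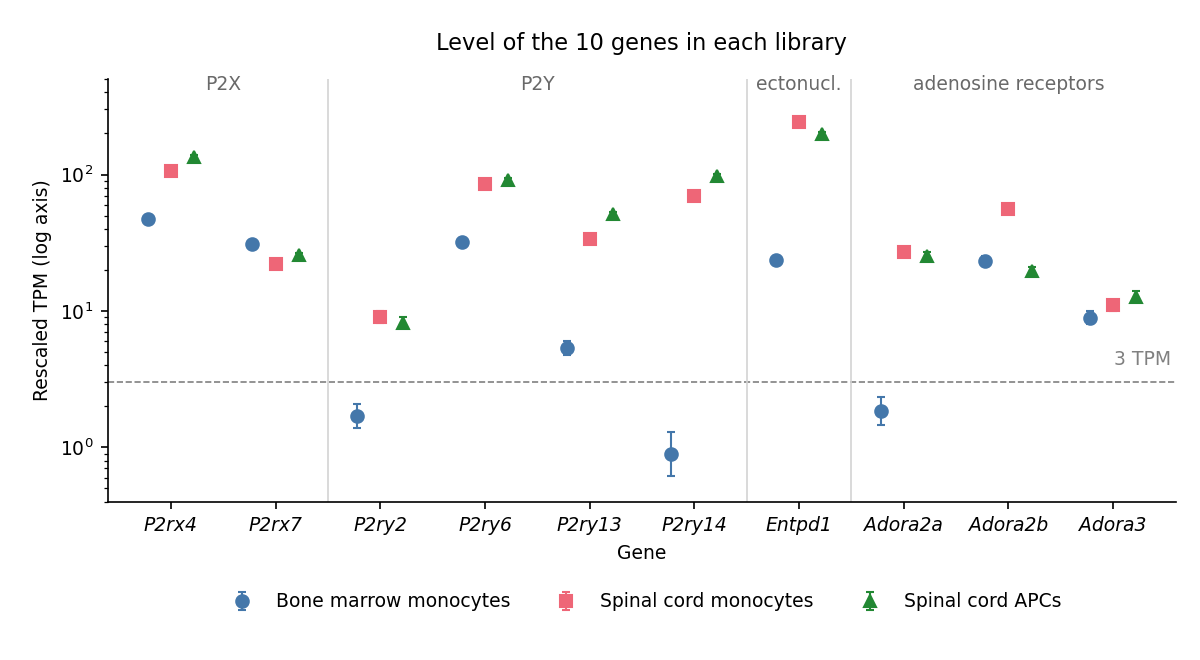
Rescaled TPM (log axis) of the 10 genes in BM monocytes (circles), SC monocytes (squares) and APCs (triangles), with 95% Wilson intervals of counting error. P2ry2, P2ry14 and Adora2a lie under the dashed line at 3 TPM in the bone marrow library and above it in both spinal cord libraries, and Adora2b is highest in SC monocytes at 56.2 TPM.

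Among the P2X channels, P2rx4 and P2rx7 went apart. P2rx4 (ENSMUSG00000029470.15, chr5:122707544-122729738 on the plus strand of GRCm38) had 1244 reads in BM monocytes, 2505 in SC monocytes and 3607 in APCs. Its level was 47.0 TPM (95% interval 44.5 to 49.7), 106 TPM (102 to 110.2) and 134 TPM (130.1 to 139), lowest in the bone marrow and highest in APCs. P2rx4 was called higher in SC than in BM monocytes, 2.77-fold, or 1.47 on the log2 scale (98% interval 1.35 to 1.59). P2rx7 (ENSMUSG00000029468.17), which lies upstream of P2rx4 on the same strand at chr5:122643911-122691432, had 2656, 1290 and 1905 reads in the same order. Its level was 31.0 TPM (29.8 to 32.2), 22.1 TPM (21 to 23.4) and 25.7 TPM (24.5 to 26.8), so that it was the only gene of the 10 with its highest level in the bone marrow. The log2 fold change of P2rx7 was -0.58 (98% interval -0.70 to -0.47) and was not called. The estimated effective length of P2rx7 also differed, at 4014, 3007 and 3562 bases, and with reads divided by it the log2 fold change was -0.26. The TPM of P2rx4 was 1.52 times that of P2rx7 in BM monocytes (95% interval 1.42 to 1.62), 4.79 times in SC monocytes (4.48 to 5.12) and 5.24 times in APCs (4.95 to 5.54). Of the other P2X genes, P2rx1 was called lower in SC monocytes, with 147, 13 and 35 reads and a log2 fold change of -2.97 (-4.02 to -2.10). P2rx5 had 0, 43 and 93 reads, and P2rx2, P2rx3 and P2rx6 had at most 5 reads in any library.

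P2ry2, P2ry6, P2ry13 and P2ry14 were all called higher in SC monocytes. P2ry14, the receptor for UDP-glucose, had the largest difference of the 10 genes. P2ry14 (ENSMUSG00000036381.13, chr3:59113855-59153618 on the minus strand) had 27 reads in BM monocytes, 1553 in SC monocytes and 2509 in APCs. Its level was 0.894 TPM (0.614 to 1.30), 69.7 TPM (66.3 to 73.3) and 97.0 TPM (93.2 to 101), the lowest of the 10 in the bone marrow and among the 4 highest in each spinal cord library. The log2 fold change of P2ry14 was 6.27 (98% interval 5.67 to 6.96), or 77.2-fold, and 2.11% of the genes above 3 TPM had a higher one. P2ry13, a receptor for ADP coupled to Gi (ENSMUSG00000036362.2, chr3:59207892-59210882 on the minus strand), had 259, 1474 and 2437 reads. The level of P2ry13 was 5.34 TPM (4.73 to 6.03), 33.8 TPM (32.1 to 35.6) and 51.3 TPM (49.3 to 53.4), again lowest in the bone marrow and highest in APCs. The log2 fold change of P2ry13 was 2.97 (2.74 to 3.20) for SC over BM monocytes.

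P2ry2 and P2ry6 lie near each other on the minus strand of chromosome 7 and were both called, with smaller differences. P2ry2, which binds ATP and UTP (ENSMUSG00000032860.5, chr7:100996568-101012866), had 96, 378 and 402 reads. Its level of 1.70 TPM (1.39 to 2.07) in the bone marrow, 9.04 TPM (8.17 to 10) in SC monocytes and 8.21 TPM (7.45 to 9.06) in APCs made it the least abundant of the 10 in both spinal cord libraries. The log2 fold change of P2ry2 was 2.43 (2.06 to 2.82). P2ry6, the UDP receptor (ENSMUSG00000048779.5, chr7:100937630-100974649), had 1143, 2683 and 3236 reads, or 32.2 TPM (30.4 to 34.1), 85.8 TPM (82.7 to 89.1) and 91.5 TPM (88.4 to 94.7). Its log2 fold change was 1.69 (1.57 to 1.81). P2ry6 was more abundant than P2ry2 in every library, by 18.9, 9.49 and 11.1 times in TPM.

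**Figure D2:**
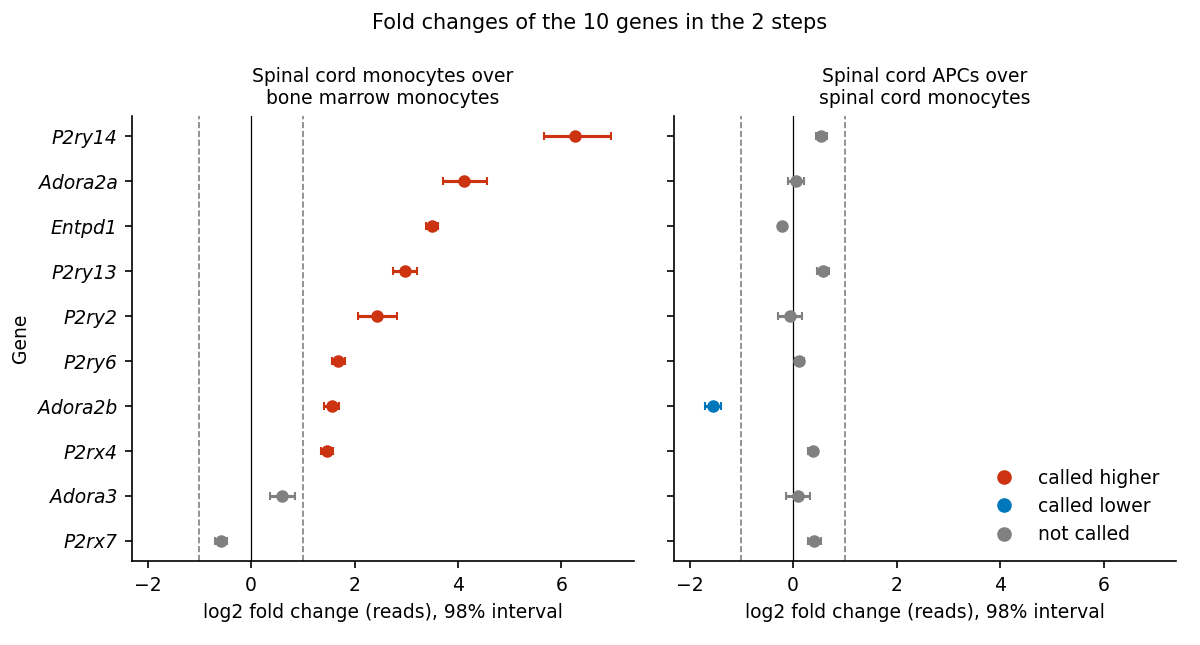
Log2 fold change of reads (points) with 98% intervals of counting error (bars) for the 10 genes in SC over BM monocytes (left) and in APCs over SC monocytes (right), with dashed lines at a 2-fold change. In the left panel 8 genes lie wholly to the right of the line, and in the right panel Adora2b alone lies beyond a line, at -1.54.

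P2ry14 and P2ry13 belong to a cluster with P2ry12, the ADP receptor used as a marker of microglia (chr3:59216272-59262871). The 3 genes span 149 kb on the minus strand inside Med12l, a gene of the plus strand (chr3:59005825-59318682). Exons of P2ry14 and P2ry13 share 0 bases with exons of Med12l, which itself stood at 0.0740, 1.02 and 1.25 TPM. P2ry12 had 417, 1179 and 2923 reads, or 10.1, 36.0 and 85.6 TPM, and was called higher in both steps, with log2 fold changes of 1.96 (1.77 to 2.15) and then 1.16 (1.05 to 1.28). Gpr171, another receptor gene of the locus, had 45, 2146 and 3337 reads, or 1.07, 56.8 and 81.0 TPM, and was called higher in SC monocytes (6.01, 98% interval 5.54 to 6.55). The balance of the cluster differed between the libraries. The TPM of P2ry14 was 0.167 times that of P2ry13 in the bone marrow (0.113 to 0.248), 2.06 times in SC monocytes (1.92 to 2.22) and 1.89 times in APCs (1.79 to 2.00). The TPM of P2ry12 was 1.89, 1.07 and 1.67 times that of P2ry13. All 11 microglia genes above 3 TPM in either monocyte library were called higher in SC than in BM monocytes, beside 13.6% of all genes. Of 12 above it in SC monocytes or APCs, 9 were called higher in APCs, beside 1.94% of all genes. P2ry13 and P2ry14 were not called in the latter step (0.58 and 0.54). The study gated spinal cord cells on high CD45 to leave out microglia. From Tmem119 it estimated that microglia made up at most a few percent of the APCs. The part of microglia in the levels of P2ry13 and P2ry14 was not tested.

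**Figure D3:**
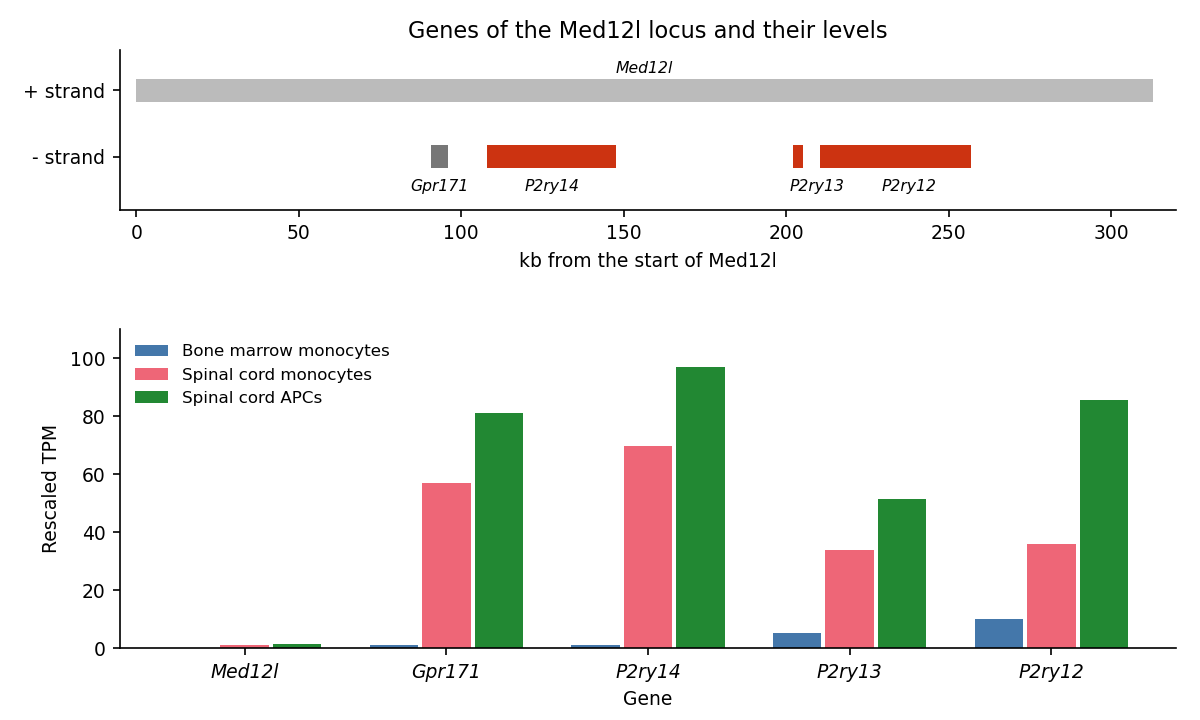
Genes of the Med12l locus by their distance in kb from the start of Med12l (top, with the 3 P2Y receptor genes in red) and their rescaled TPM in each library (bottom, bars from 0). P2ry14 and Gpr171 are near 0 in the bone marrow library, at 0.894 and 1.07 TPM, and all 3 P2Y receptor genes are highest in APCs.

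Entpd1 was the most abundant of the 10 genes in the spinal cord. Entpd1 (ENSMUSG00000048120.16, chr19:40612366-40741602 on the plus strand) had 928 reads in BM monocytes, 7647 in SC monocytes and 7261 in APCs. Its level was 23.5 TPM (22.0 to 25.1), 243 TPM (237 to 248) and 199.5 TPM (195 to 204), and 6.69% of the genes above 3 TPM in SC monocytes had a higher level, against 54.2% in the bone marrow. Entpd1 was called higher in SC monocytes, 11.3-fold, or 3.50 on the log2 scale (3.39 to 3.62). Nt5e, which encodes the next enzyme of the path to adenosine, had 2 reads in the bone marrow, under the floor of 3 reads, and 1541 and 1436 reads in the spinal cord libraries. The level of Nt5e was 0.0392, 23.5 and 18.4 TPM, and its log2 fold change was 9.63 with a 98% interval of 7.98 to 12.25. The TPM of Entpd1 was 10.3 times that of Nt5e in SC monocytes (9.79 to 10.9) and 10.8 times in APCs (10.3 to 11.5). T cells and endothelial cells, which a gate on CD11b and CD64 is meant to leave out, are also known for both enzymes. Trac and Cldn5 had 0 reads in the bone marrow. In SC monocytes and APCs, Trac stood at 19.2 and 29.1 TPM and Cldn5 at 11.6 and 5.63 TPM, beside 243 and 199.5 TPM of Entpd1 and 23.5 and 18.4 TPM of Nt5e. None of these genes was called between SC monocytes and APCs. The part of T cells, endothelial cells and microglia in the levels of Entpd1 and Nt5e was not tested. Other ectonucleotidases were low. Enpp1 stood at 0.481, 2.28 and 5.69 TPM, Acp3 at 8.07, 4.90 and 6.09 TPM, and Entpd2, Entpd3, Entpd8, Enpp3 and Alpl had at most 22 reads in any library. Of the 4 measured genes for intracellular enzymes of the ENTPD family, Entpd4 alone was called higher in SC monocytes, at 5.03, 11.6 and 15.5 TPM (1.33).

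Of the adenosine receptors, Adora2a and Adora2b were called higher in SC monocytes and Adora3 was not. Adora2a (ENSMUSG00000020178.6, chr10:75316877-75334784 on the plus strand) had 68, 866 and 1002 reads in BM monocytes, SC monocytes and APCs. Its level was 1.85 TPM (1.46 to 2.35), 27.1 TPM (25.4 to 29.0) and 25.3 TPM (23.8 to 26.9), under 3 TPM in the bone marrow and with overlapping intervals in the spinal cord libraries. The log2 fold change of Adora2a was 4.12 (3.71 to 4.56), or 17.4-fold. Adora2b (ENSMUSG00000018500.2, chr11:62248984-62266453 on the plus strand) had 794, 1707 and 648 reads. Its level was 23.4 TPM (21.8 to 25.1), 56.2 TPM (53.6 to 58.9) and 19.5 TPM (18 to 21), highest in SC monocytes. The log2 fold change of Adora2b was 1.56 (1.42 to 1.71). Adora3 (ENSMUSG00000000562.5, chr3:105870858-105908926 on the plus strand) had 354, 391 and 464 reads, or 8.95 TPM (8.07 to 9.94), 11.0 TPM (9.92 to 12.1) and 12.7 TPM (11.6 to 13.9). Its log2 fold change of 0.60 (0.36 to 0.85) was not called. Exons of Adora3 share 779 bases, or 20.9% of its exonic bases, with Tmigd3 on the same strand, which had 5, 3 and 0 reads, so the split of reads between them is uncertain. Adora3 is also known from mast cells and eosinophils, and of their 7 marker genes none was above 3 TPM in the bone marrow and Siglecf alone was above it in the spinal cord, at 3.16 and 7.83 TPM. Summed over these marker genes the level was 2.96, 3.77 and 9.36 TPM. Adora1 had 0, 128 and 481 reads, or 1.53 and 5.27 TPM in the spinal cord libraries. It was called higher in APCs than in BM monocytes, with a log2 fold change of 9.77 (7.03 to 15.88). With its bone marrow reads set to the floor of 3 reads per library, Adora1 was 201-fold higher in APCs. This ratio holds no counting error and is not a lower limit.

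To ask which of these genes differed further between SC monocytes and the APCs derived from them, the same rule was applied to these 2 libraries. Of the 10 genes, 0 were called higher and 1, Adora2b, was called lower, against 1.94% higher and 1.66% lower of 9734 genes above 3 TPM in either library. The call of Adora2b was lost with an assumed CV of 0.2 or 0.4. The median log2 fold change was 0.11 for the 10 genes and -0.03 for all of these genes. Adora2b was 2.92-fold lower in APCs (log2 fold change -1.54, 98% interval -1.70 to -1.39), and 99.1% of the genes had a higher one. The other 9 genes ranged from -0.22 for Entpd1 (-0.28 to -0.17) to 0.58 for P2ry13 (0.47 to 0.69). Between them lay P2ry14 at 0.54 (0.44 to 0.65), P2rx7 at 0.41 (0.29 to 0.54), P2rx4 at 0.38 (0.29 to 0.47), P2ry6 at 0.12 (0.04 to 0.21), Adora3 at 0.10 (-0.13 to 0.33), Adora2a at 0.06 (-0.09 to 0.22) and P2ry2 at -0.06 (-0.30 to 0.18). The intervals of the last 3 held 0, and the direction of Adora2a turned with the scaling, to -0.02 with reads divided by effective length and -0.10 on TPM. In this step the population and the transcript set of the APC values cannot be told apart.

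**Figure D4:**
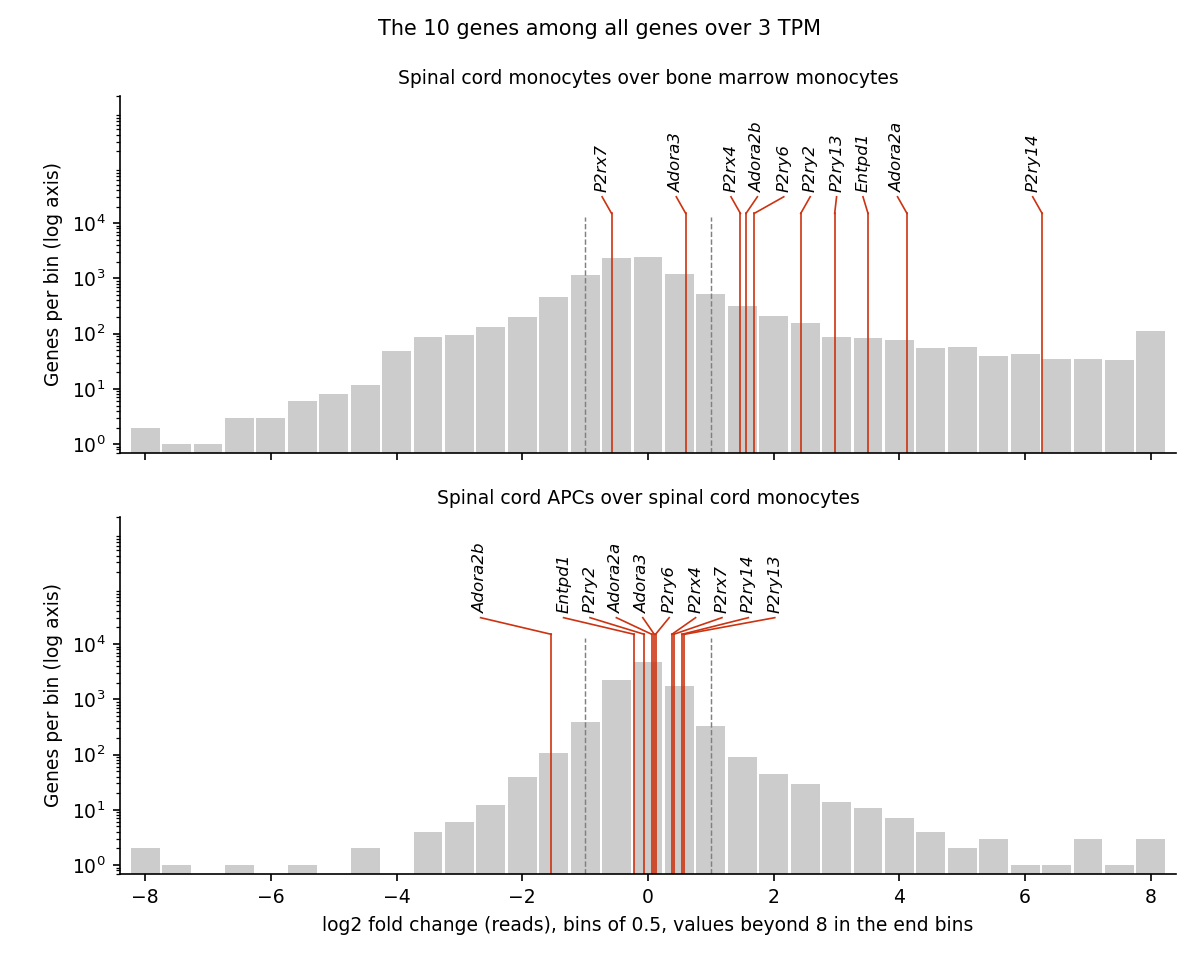
Number of genes above 3 TPM per bin of log2 fold change (grey bars, log axis) for SC over BM monocytes (top) and APCs over SC monocytes (bottom), with red lines at the 10 genes and dashed lines at a 2-fold change. In the top panel 8 lines lie to the right of the 2-fold line, up to 6.27 for P2ry14, and in the bottom panel Adora2b alone lies beyond it, at -1.54.

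The order of the receptors that raise cAMP differed between the libraries. The TPM of Adora2a was 0.0791 times that of Adora2b in BM monocytes (0.0618 to 0.101), 0.483 times in SC monocytes (0.445 to 0.524) and 1.30 times in APCs (1.18 to 1.43). Adora2a was the more abundant of the pair in APCs alone, and the 95% intervals of the 3 ratios did not overlap. Within APCs the order of the 10 genes by TPM ran from Entpd1, P2rx4, P2ry14, P2ry6 and P2ry13 to P2rx7, Adora2a, Adora2b, Adora3 and P2ry2. The neighbours P2ry14 and P2ry6, and P2rx7 and Adora2a, had overlapping intervals in APCs. In SC monocytes the order was Entpd1, P2rx4, P2ry6, P2ry14, Adora2b, P2ry13, Adora2a, P2rx7, Adora3 and P2ry2, and the intervals of Adora3 and P2ry2 overlapped. In BM monocytes P2rx4, P2ry6, P2rx7, Entpd1 and Adora2b led, followed by Adora3, P2ry13, Adora2a, P2ry2 and P2ry14, with overlaps between P2ry6 and P2rx7, Entpd1 and Adora2b, and Adora2a and P2ry2.

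APCs were also compared with BM monocytes, a comparison that shares each of its libraries with the others. Here too the population and the transcript set of the APC values cannot be told apart. Among the 10 genes the call was higher in APCs for 7 and lower for 0, against 14.0% higher and 11.7% lower of 10190 genes. With an assumed CV of 0.2 or 0.4, 5 or 4 were called higher. The median log2 fold change was 2.12, beside -0.17 for all of these genes. P2ry14 again had the highest value, at 6.83 (6.23 to 7.52), followed by Adora2a at 4.20, P2ry13 at 3.56 and Entpd1 at 3.29. Adora2b was at 0.03 (-0.14 to 0.21), Adora3 at 0.72 (0.48 to 0.96) and P2rx7 at -0.15 (-0.25 to -0.05), and these 3 were not called. The sign of Adora2b turned with total reads (-0.11) and on TPM (-0.25), and that of P2rx7 with reads divided by effective length (0.06).

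The other genes of the pathway were called in both directions. Of 70 genes listed for their part in purinergic or adenosine signalling and not among the 10, 69 were found, and 45 were above 3 TPM in either monocyte library. Of these 45, 12 were called higher in SC monocytes, 6 lower and 27 were not called, beside the 13.6% higher and 11.0% lower of all genes, with a median log2 fold change of 0.04. Between SC monocytes and APCs, 4 of 47 were called higher, 4 lower and 39 were not, beside 1.94% and 1.66% of all genes. P2ry1, an ADP receptor coupled to Gq, was called lower in both steps, with 1984, 294 and 121 reads, or 31.7, 5.66 and 2.38 TPM, and log2 fold changes of -2.29 (-2.51 to -2.09) and -1.42 (-1.79 to -1.07). P2ry10, a lysophosphatidylserine receptor named after the family, was called higher in both steps, at 0.267, 8.91 and 45.4 TPM (5.29 and 2.32), and its close paralog P2ry10b stood at 19.9, 34.8 and 20.4 TPM, so reads may be split between them.

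Of the 10 genes for adenosine uptake and breakdown, 6 were above 3 TPM in either monocyte library, of which 0 were called higher and 1, Adk, lower in SC monocytes. Of the 7 above it in SC monocytes or APCs, 0 were called higher and 2, Slc28a2 and Pnp, lower in APCs. Against 13.6% and 11.0% of all genes in the first step, lists this small allow no reading of a share. Slc28a2, a concentrative nucleoside transporter, stood at 28.2, 30.1 and 4.37 TPM (-2.43 in APCs, 98% interval -2.67 to -2.20). Pnp, which splits inosine and guanosine, stood at 269, 306 and 89.8 TPM (-1.36, 98% interval -1.43 to -1.29). Adk, which phosphorylates adenosine to AMP, had 761, 170 and 136 reads (-1.70, 98% interval -1.99 to -1.42, and -0.47 in APCs). Its level was 28.7, 12.3 and 4.23 TPM. The effective length of Adk differed, at 1242, 711 and 1541 bases, so reads and TPM divide its fall differently between the steps. Ada, adenosine deaminase, stood at 2.59, 1.97 and 3.30 TPM and was not called. Of 8 ATP release genes above 3 TPM in either monocyte library, 2 were called higher in SC monocytes, 1 lower and 5 were not called. Panx1, a channel through which ATP leaves cells, stood at 20.5, 12.5 and 8.86 TPM and was not called in either step. Calhm6 was called higher in SC monocytes and lower in APCs, at 12.2, 88.5 and 36.5 TPM (3.15 and -1.27), and like Adora2b it was highest in SC monocytes. Gja1, which encodes connexin 43, was the other called higher, with 9, 123 and 50 reads (4.14). Calhm2 was called lower in SC monocytes, at 32.3, 2.65 and 3.54 TPM (-3.29).

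**Figure D5:**
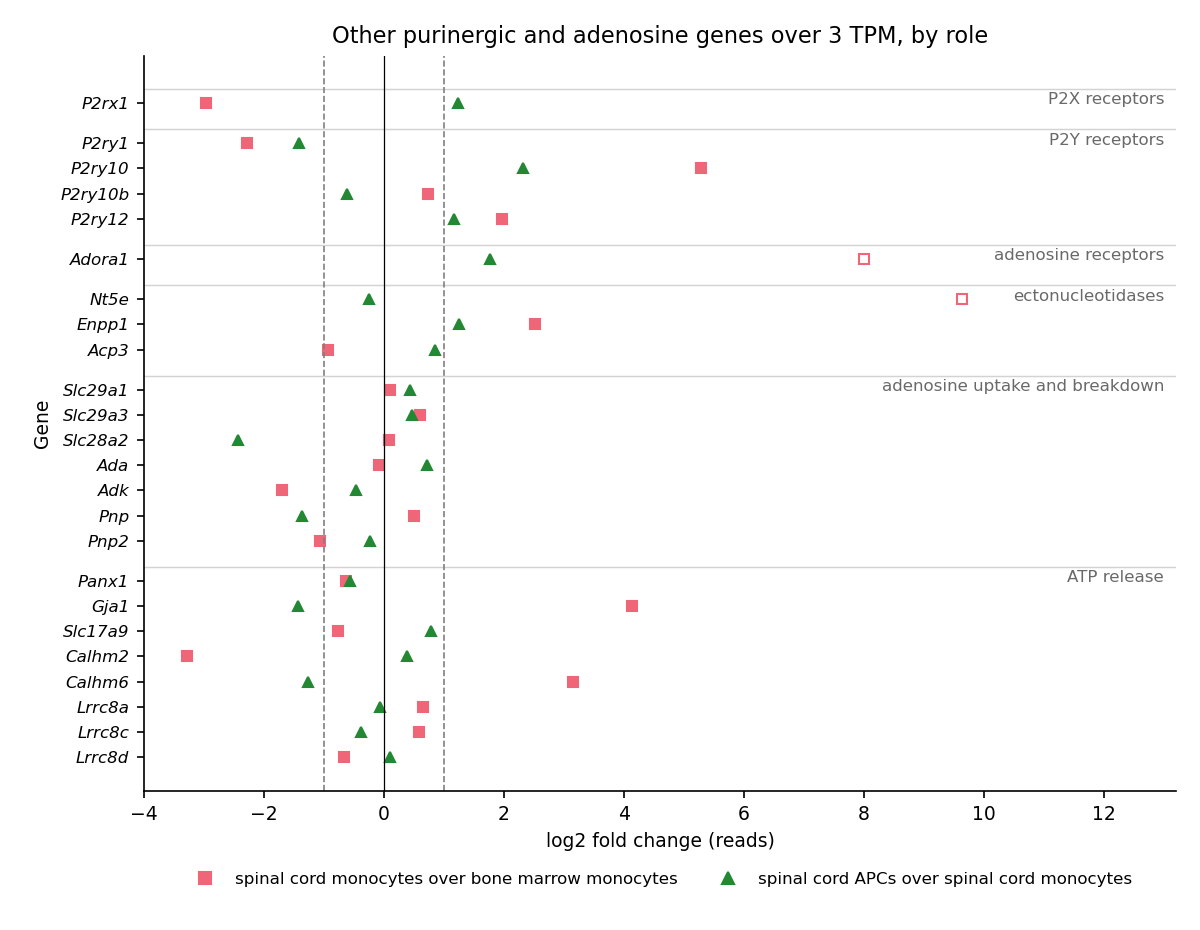
Log2 fold change of reads in SC over BM monocytes (squares) and APCs over SC monocytes (triangles) for the receptor, enzyme, transporter and release genes outside the 10 that were above 3 TPM in any library, grouped by role, with dashed lines at a 2-fold change. Open squares mark Adora1 and Nt5e, which had 0 and 2 reads in the bone marrow, and P2ry1 and P2ry10 lie beyond the lines on opposite sides in both steps.

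The 2 genes with the most similar profile over the 3 libraries were taken for genes called in any comparison, by the distance of log2 TPM plus 1 after centring each gene, among 8412 genes above 3 TPM in every library and outside the lists. With 3 libraries, many genes share a profile by construction, and the neighbours are a description only. Genes under 3 TPM in a library, as P2ry2, P2ry14 and Adora2a were in the bone marrow, were not searched, and none is given for P2ry14. Nearest to Adora2a among the genes searched was Lacc1, at 3.26, 41.0 and 38.1 TPM (distance 0.0074), followed by Nfkbid, an inhibitor of NF-kB, at 9.49, 102 and 90.2 TPM. Nearest to Entpd1 were Slc25a37, the mitochondrial iron importer mitoferrin, at 7.11, 81.2 and 66.4 TPM (0.021), and Phf11d (0.033). Nearest to Adora2b were Necap1 (0.11) and Zfp280d (0.15), and to P2ry13 Vat1 (0.15) and Zfp36l1 (0.16). Gde1 and Pilra were nearest to P2ry2, and Rel and Cd300c2 to P2ry6.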

How the data were processed

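RNA of 3 sorted populations was sequenced as 50 bp paired-end reads, 1 pooled library each. The authors estimated expression with SALMON (Salmon 0.14.1 on mm10 in the submitters' processing notes) and GENCODE vM22, pooling the transcripts of a gene. The estimated counts deposited are raw. For the TPM, the authors corrected effective length and depth before deposit, and the deposited effective lengths were used for an alternative. Of the deposited TPM, the common genes took 84.9% in bone marrow monocytes, 85.3% in those of the spinal cord and 100.0% in APCs. Whether reads were assigned by strand is not given in the sources used here.

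The 10 genes and all lists were chosen with earlier results of these data known. Every one of the 10 is named, and other genes of the fixed lists could be named if they were above 3 TPM in a library or their role was needed, a choice made with their values known. Estimated counts were rounded to whole reads, and the definition of GFold in the study was computed anew, since the tool was not run. For each pair of libraries, gamma posteriors of reads plus 1 were scaled by median-of-ratios size factors, and percentiles 1 and 99 of the log2 ratio had to lie beyond a 2-fold change. The study's threshold for active genes was read as a TPM of 3. TPM was given a 95% Wilson interval, and the floor was 3 reads. GENCODE M21 (GRCm38) gave symbols and positions, and 99.0% of the genes compared had an identical identifier there, version included. Promoter windows came from RefSeq. The genes with a profile nearest to that of P2rx4 are not reported here. Alternatives were total reads, TMM factors, effective lengths, TPM with a pseudocount of 1 or 0.1, a TPM threshold of 4 or none, all genes of the monocyte libraries, and a spread between libraries assumed at a coefficient of variation (CV) of 0.2 or 0.4. TMM factors came from edgeR 4.0.16 (R 4.3.3). All else was computed in Python 3.11.15 (scipy 1.17.1, numpy 2.4.6, pandas 2.3.3) and drawn with matplotlib 3.10.9.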

Additional observations from a re-analysis of the deposited data

How the results depend on the processing

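The counts of called genes among the 10 stayed at 8 higher in SC over BM monocytes, 1 lower in APCs over SC monocytes and 7 higher in APCs over BM monocytes under total reads, TMM factors and effective lengths. The first also stayed over all genes of the monocyte libraries. The same counts were found on TPM with a pseudocount of 1 or 0.1, where the cut was a plain 2-fold change without an interval. A TPM threshold of 4 or none could not change a call, since each of the 10 was at 8.21 TPM or more in both spinal cord libraries. An assumed spread between libraries, which widens each interval, lowered the counts. With a CV of 0.2, 5 genes were called higher in SC monocytes, without P2rx4, P2ry6 and Adora2b, 0 were called lower in APCs over SC monocytes, without Adora2b, and 5 were called higher in APCs over BM monocytes. With a CV of 0.4 these counts were 4, 0 and 4, and P2ry2 was lost too. The 4 that kept their call in both comparisons with the bone marrow were P2ry13, P2ry14, Entpd1 and Adora2a. Of 160 fold changes of the 10 genes under the alternatives, 98 stayed within the 95% interval of the reported value, 62 lay outside it and 0 called ones changed sign. Total reads moved all log2 ratios of SC over BM monocytes by -0.16. Size factors from all genes of the monocyte libraries moved them by -0.22. No paired analysis was possible because each population has 1 library, and no replicate could be left out. Depth limited P2ry14 and Adora2a in the bone marrow, with 27 and 68 reads, and the spread between animals cannot be read from pooled libraries.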

Other observations

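Some genes downstream of the receptors were also called between the libraries. Of 12 genes of cAMP signalling above 3 TPM in either monocyte library, 4 were called higher in SC than in BM monocytes, 2 lower and 6 were not called, beside 13.6% called higher and 11.0% called lower of all genes. Crem, a transcription factor gene induced by cAMP, had 102, 2160 and 2007 reads in monocytes of the bone marrow (BM), monocytes of the spinal cord (SC) and APCs, or 3.92, 160.1 and 150.4 TPM, and its log2 fold change between the monocyte libraries was 4.85 (98% interval 4.53 to 5.21). Pde4b and Pde4d, phosphodiesterases that degrade cAMP, stood at 11.1, 226 and 217 TPM (4.58) and at 0.876, 11.0 and 9.68 TPM (3.96), and Pde3b was called higher as well (1.28). Prkacb, a catalytic subunit of protein kinase A, and Prkar2b, a regulatory one, were called lower (-1.16 and -2.43). Adcy6, an adenylyl cyclase, had 40 reads in SC monocytes and was called higher in APCs, with 438 reads (3.28, 98% interval 2.76 to 3.86). These genes answer to many signals other than adenosine, and their relation to the adenosine receptors was not tested.

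Of the G protein genes, Gnai2 was the most abundant, at 1001, 572 and 675 TPM, and Gnas, which couples the Adora2a and Adora2b receptors to cAMP, stood at 393, 322 and 355 TPM. Neither was called in either step. Gna13 was called higher in SC monocytes, at 52.5, 336 and 165 TPM (2.18, 98% interval 2.13 to 2.24). Gnaq was called higher too (1.22). In APCs it had 2971 reads, beside 3482 in the monocytes of the same tissue, but 26.4 TPM beside 69.7 TPM, so its level in APCs rests on the effective length of the other transcript set.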
